A study of Mus musculus with 12 samples.

Results

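Of 34348 genes in a mouse RNA sequencing table, 9 were taken by name and followed through liver and small intestine: Cps1, Otc, Ass1, Asl and Arg1, which encode the enzymes of the urea cycle, Nags, which makes the activator of the Cps1 enzyme, Glul and Gls2, which make and split glutamine, and Tat, which starts the breakdown of tyrosine. All 9 were found under these symbols, and the rule uses their names and no measured value. The 12 libraries came from total RNA of C57BL/6 mice and fell into 4 groups of 3. These were liver after PBS, liver after LCWE, small intestine after PBS and small intestine after LCWE, where PBS is the saline control and LCWE the agent under study, which the labels do not spell out. The table of comparisons that the authors deposited heads its LCWE columns LCWECFA, and no label says what the added letters mean or whether these animals received a further agent. The labels give no dose, time after treatment, age, sex or gut segment. They also do not say that replicates are separate animals, so each p-value below speaks of the spread between libraries, which may be technical.

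The urea cycle turns ammonia, released when amino acids are broken down, into urea for excretion. Its first steps, run by the Nags, Cps1 and Otc products, lie in mitochondria and give citrulline, and its later steps, run by the Ass1, Asl and Arg1 products, lie in the cytosol and pass through arginine. Liver is known to run the whole cycle, chiefly in hepatocytes near the portal vein, with Gls2 expressed there too and Glul held in a rim of hepatocytes around the central vein. The epithelium of the small intestine is known to run the mitochondrial steps and to release citrulline, which the kidney converts to arginine.

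The genes lie apart in the genome (build mm10, positions from the reference annotation). On chromosome 1, Cps1 spans 67123026 to 67231259 and Glul spans 153899944 to 153909723, both on the forward strand. Otc lies on X from 10252305 to 10321024 and Ass1 on chromosome 2 from 31470207 to 31520672, both forward. On the reverse strand, Asl occupies 130011258 to 130029247 of chromosome 5 and Arg1 occupies 24915208 to 24927470 of chromosome 10. Nags runs from 102145513 to 102149477 of chromosome 11, Gls2 from 128194457 to 128210004 of chromosome 10 and Tat from 109990437 to 109999803 of chromosome 8, all forward. Each is protein coding, and a value here counts reads over its exons. Exons of Nags overlap Gm11586, those of Glul overlap Teddm2 and Mir8114, and those of Gls2 overlap Spryd4. Whether strand was used in counting is not given, so reads of such partners cannot be told apart from those of the member.

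RefSeq start-site windows of assembly GRCm38.p6, 300 bases with 250 before the start, were held for 5 of the 9 genes (Otc, Ass1, Nags, Glul and Tat). The pair that the gut retained most, Nags and Otc, and a pair that it had at 1.02 and 0.556% of the liver level, Ass1 and Tat, are shown, 5′ to 3′ on the forward strand. Capitals mark matches on either strand to 6 short motifs, which do not overlap one another in these windows. The TATA box was searched as TATAAA, the CAAT-type box as CCAAT, and the cAMP response element as its core TGACG. The C/EBP type was searched as TTGCNNAA, the HNF4 type as CAAAGTCCA and the GC box as GGGCGG.
Otc chrX:10252055-10252354: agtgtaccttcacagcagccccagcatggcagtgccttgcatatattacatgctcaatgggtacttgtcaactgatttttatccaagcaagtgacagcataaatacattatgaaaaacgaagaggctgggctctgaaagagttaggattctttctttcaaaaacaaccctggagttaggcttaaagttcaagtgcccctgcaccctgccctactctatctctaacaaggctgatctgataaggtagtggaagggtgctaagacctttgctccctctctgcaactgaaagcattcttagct
Nags chr11:102145263-102145562: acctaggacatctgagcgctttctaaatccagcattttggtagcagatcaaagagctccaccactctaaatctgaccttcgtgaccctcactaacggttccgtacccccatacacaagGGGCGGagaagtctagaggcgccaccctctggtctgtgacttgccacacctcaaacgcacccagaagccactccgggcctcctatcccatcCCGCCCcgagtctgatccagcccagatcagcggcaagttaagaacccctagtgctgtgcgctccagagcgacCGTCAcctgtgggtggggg
Ass1 chr2:31470020-31470319: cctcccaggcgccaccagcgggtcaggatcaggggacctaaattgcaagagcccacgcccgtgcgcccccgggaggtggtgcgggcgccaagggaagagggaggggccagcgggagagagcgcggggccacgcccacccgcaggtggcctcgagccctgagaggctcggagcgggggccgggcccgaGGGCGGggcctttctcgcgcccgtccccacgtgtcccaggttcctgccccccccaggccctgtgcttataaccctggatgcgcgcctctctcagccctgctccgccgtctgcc
Tat chr8:109990186-109990485: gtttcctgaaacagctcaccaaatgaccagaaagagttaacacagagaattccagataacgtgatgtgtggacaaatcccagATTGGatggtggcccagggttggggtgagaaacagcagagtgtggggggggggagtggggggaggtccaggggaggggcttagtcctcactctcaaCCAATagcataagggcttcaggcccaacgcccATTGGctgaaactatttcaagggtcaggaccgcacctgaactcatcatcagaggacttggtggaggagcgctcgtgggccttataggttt
The Otc window held none of these letters and a single CpG, with 44.3% G or C. The Ass1 window was the richest, with 74% G or C, 27 CpGs and 1 GC box that starts 63 bases before the start site. Nags held 14 CpGs, GC boxes at -132 and -41 and a TGACG match at +32 on the opposite strand. Tat held 5 CpGs and 3 CCAAT matches, at -168, -72 and -40. Over all 32851 windows the median was 52.7% G or C and 7 CpGs, 37.4% held CCAAT, 35.7% held GGGCGG and 20.8% held TGACG. The windows of the retained pair shared no searched match, and a match is a description of letters, not a bound site.

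Depth was similar across libraries, with 30294594 to 40253006 reads assigned to genes in small intestine and 34741958 to 44921885 in liver, and log2 values of libraries in a group correlated across genes at 0.98 to 0.992. Levels are given as RPKM, the reads of a gene divided by its length and by the total of assigned reads of the library. The summed level of 12 hepatocyte markers was 24219 to 37872 RPKM in PBS livers and 26371 to 30178 in LCWE livers, against 104 to 278 in the 6 gut libraries. The 10 enterocyte markers summed to 12003 to 21640 in PBS gut and 3427 to 9281 in LCWE gut, which did not overlap. Both tissues thus carried the markers of their label, and the gut groups differed in epithelial markers.

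In PBS liver, Arg1, whose product releases urea from arginine, had the highest level of the 9 genes at 1411 ± 163 RPKM (SD, n = 3), and Nags the lowest at 8.93 ± 1.69. Between them the order of mean RPKM was Tat, Ass1, Cps1, Glul, Otc, Asl and Gls2. In that order Glul and Otc overlapped over their 3 libraries, as did Otc and Asl, and the other neighbours did not. PBS gut ordered the genes differently. Cps1 led at 76.6 ± 10.6 RPKM, Otc followed at 18.5 ± 2.17, and Glul, Ass1, Nags, Arg1 and Tat overlapped one another between 4.18 and 8.22. Asl lay just under them at 3.75 ± 0.0748 and Gls2 was last at 0.424 ± 0.0383.

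The 8 genes that reached 0.5 RPKM, the filter on low values, in both tissues were all higher in PBS liver than in PBS gut (limma, Benjamini-Hochberg adjusted over 17253 genes, 16.9% of which were called higher in liver and 60.7% lower), and in all 8 the tissues did not overlap, as in 18% of all genes in that direction. A gene is called at an adjusted p below 0.05. Gls2 passed the filter through liver alone, where it is high, and is left out of this count. The size of the gap split the cycle. The citrulline-forming genes had small gaps, with log2 differences of 0.59 for Nags, 1.89 for Otc and 2.15 for Cps1. The cytosolic genes had large ones, 3.89 for Asl, 6.51 for Ass1 and 7.88 for Arg1. The median over the 8 genes was 3.80, against -0.71 over all genes tested. These differences were fitted on log2(RPKM + 0.5), and those of low genes are understated. Median-ratio and quantile scaling shift the median difference over all genes by 0.66 and 0.72 and single genes by other amounts (under quantile scaling Cps1 stands at 2.25 and Otc at 2.24), and Nags, Otc and Cps1 have the 3 smallest gaps under both.

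Cps1 makes carbamoyl phosphate from ammonia and bicarbonate and is the entry of the cycle. Its RPKM in PBS liver was 277, 403 and 348, and in PBS gut 88.4, 73.7 and 67.9. The gut libraries were all below the liver ones, by 4.42-fold (95% interval 3.35 to 5.84, adjusted p 2.78e-05, limma). Otc joins carbamoyl phosphate to ornithine to give citrulline. It stood at 79.8, 63.5 and 67.1 RPKM in PBS liver and at 20.1, 19.3 and 16.0 in PBS gut. The gap was 3.72-fold (2.98 to 4.63, adjusted p 1.62e-05, limma), again with no overlap. Nags makes N-acetylglutamate, without which the Cps1 enzyme is inactive. Its RPKM was 10.9, 8.23 and 7.70 in PBS liver and 6.01, 5.50 and 5.56 in PBS gut. The tissues did not overlap, and the gap of 1.51-fold was the smallest of the 9 (1.19 to 1.92, adjusted p 0.00778, limma).

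Ass1 couples citrulline to aspartate. It read 685, 586 and 624 RPKM in PBS liver but 5.60, 6.79 and 6.89 in PBS gut, a gap of 91.4-fold (75.6 to 111, adjusted p 3.78e-08, limma). Asl, which splits the Ass1 product into arginine and fumarate, was intermediate. Its RPKM was 64.3, 65.0 and 57.8 against 3.80, 3.79 and 3.66, or 14.8-fold (12.7 to 17.2, adjusted p 1.06e-07, limma). Arg1 had the widest gap. Its libraries stood at 1600, 1312 and 1322 RPKM in PBS liver and at 4.99, 6.14 and 5.34 in PBS gut, 235-fold apart (192 to 288, adjusted p 3.01e-08, limma). None of these 3 genes overlapped between the tissues.

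The glutamine and tyrosine genes also had wide gaps. Gls2, the liver-type glutaminase, was at 40.1, 35.7 and 39.5 RPKM in PBS liver and at 0.467, 0.396 and 0.409 in PBS gut (90.6-fold by mean RPKM). That gap is given with no test, since Gls2 reached the filter through liver alone. Glul, glutamine synthetase, was at 89.0, 96.1 and 79.4 against 4.45, 6.62 and 8.22 (13.1-fold, 9.26 to 18.6, adjusted p 5.61e-06, limma). Tat was at 756, 731 and 1145 against 4.18, 4.36 and 6.08 (162-fold, 113 to 231, adjusted p 2.45e-07, limma). For each of the 3 genes the lowest PBS liver library lay above the highest PBS gut library.

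**Figure D1:**
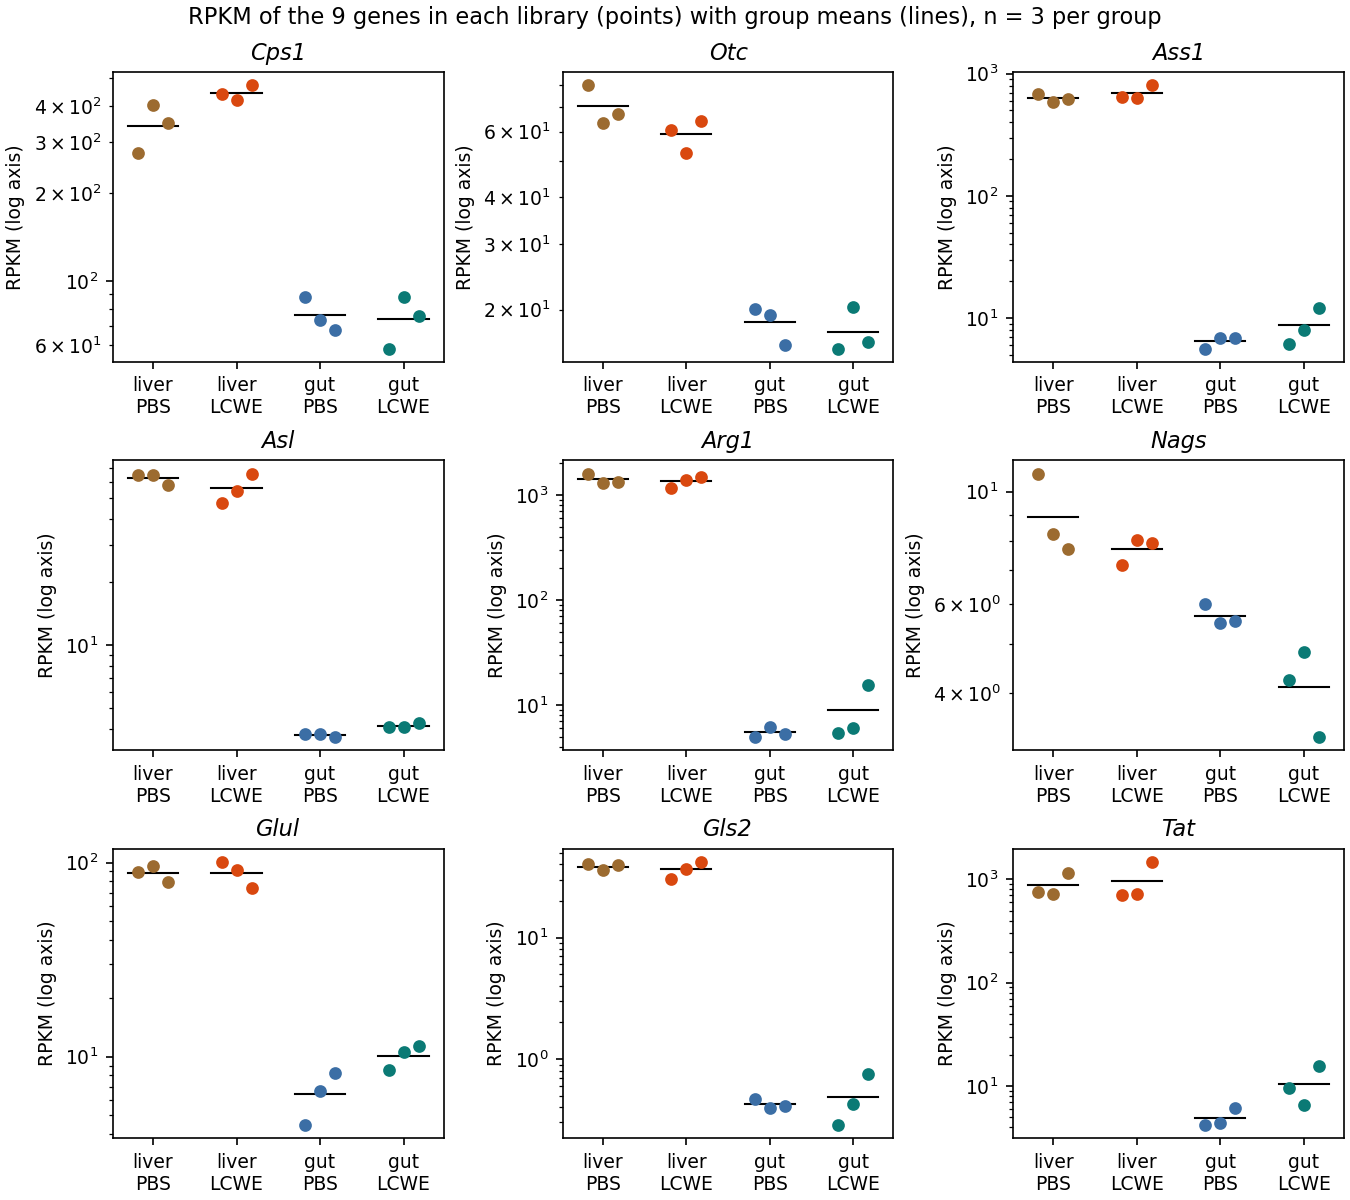
RPKM (log axis) of each of the 9 genes in every library, with points for the 3 libraries of a group and a line at the group mean; gut is small intestine. Gut points lie below liver points in all 9 panels, closest for Nags, and LCWE gut replicate 4 has the highest gut value of Ass1 (12.1), Arg1 (15.6) and Tat (15.6).

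The make-up of the 5 cycle enzymes by RPKM was therefore different in each tissue. In PBS liver Arg1 made up 55.9 ± 2.80% of their summed RPKM, Ass1 25.1 ± 0.866% and Cps1 13.7 ± 3.23% (SD, n = 3). In PBS gut Cps1 made up 69.0 ± 2.54% and Otc 16.7 ± 0.821%, with Ass1 at 5.88 ± 1.20%, Arg1 at 5.0 ± 0.83% and Asl at 3.40 ± 0.294%. No liver library overlapped a gut library in the share of Cps1, Otc, Ass1, Asl or Arg1. The 9 genes together held 0.644 to 0.713% of all RPKM in PBS livers and 0.0262 to 0.0300% in PBS gut.

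**Figure D2:**
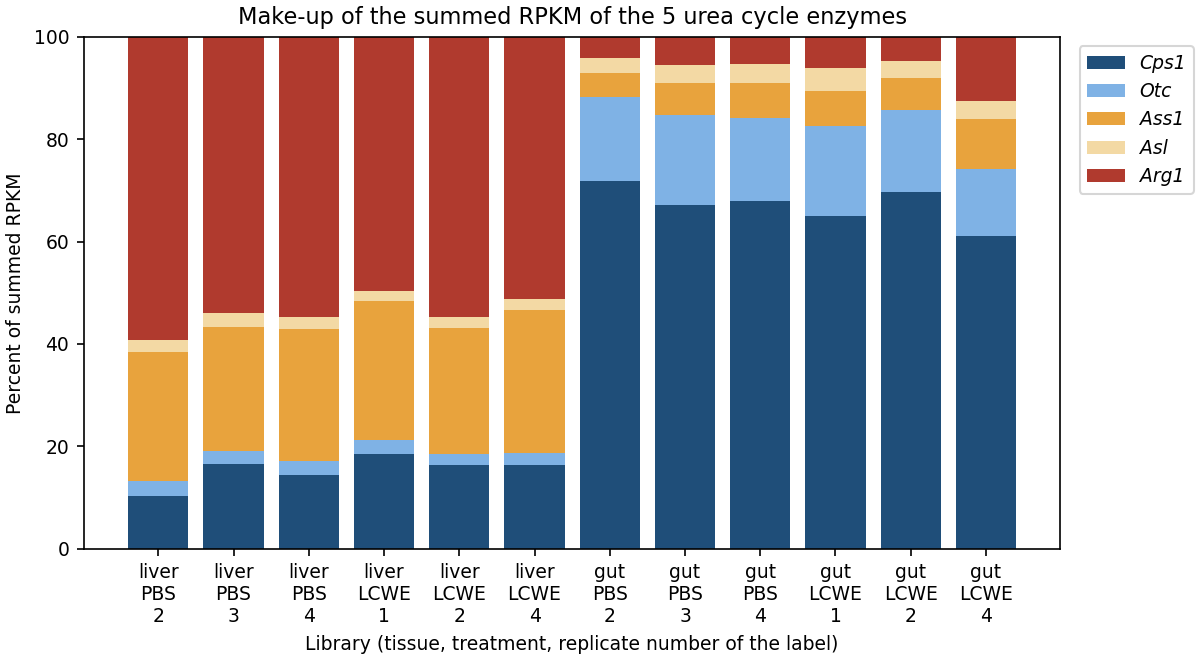
Percent of the summed RPKM of Cps1, Otc, Ass1, Asl and Arg1 that each gene held, 1 bar per library, labelled by tissue, treatment and replicate number. Arg1 fills about the same large part of every liver bar (55.9 ± 2.80% in PBS livers), and Cps1 fills most of every gut bar (69.0 ± 2.54% in PBS gut).

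RNA of hepatocytes was traced in the gut libraries with 12 hepatocyte markers, each expressed as a percent of its own PBS liver mean. In PBS gut these stood at 0.334 to 0.637%, with a median of 0.432%. Arg1 at 0.389% and Tat at 0.556% lay within that range. The other 7 genes lay above every marker, from Ass1 at 1.02% and Gls2 at 1.10% through Asl at 6.01% and Glul at 7.29% to Cps1 at 22.4%, Otc at 26.4% and Nags at 63.7%. Relative to liver, the levels of Arg1 and Tat in PBS gut thus lay inside the marker range, Arg1 below the marker median and Tat above it. The part of hepatocyte RNA in them was not tested.

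**Figure D3:**
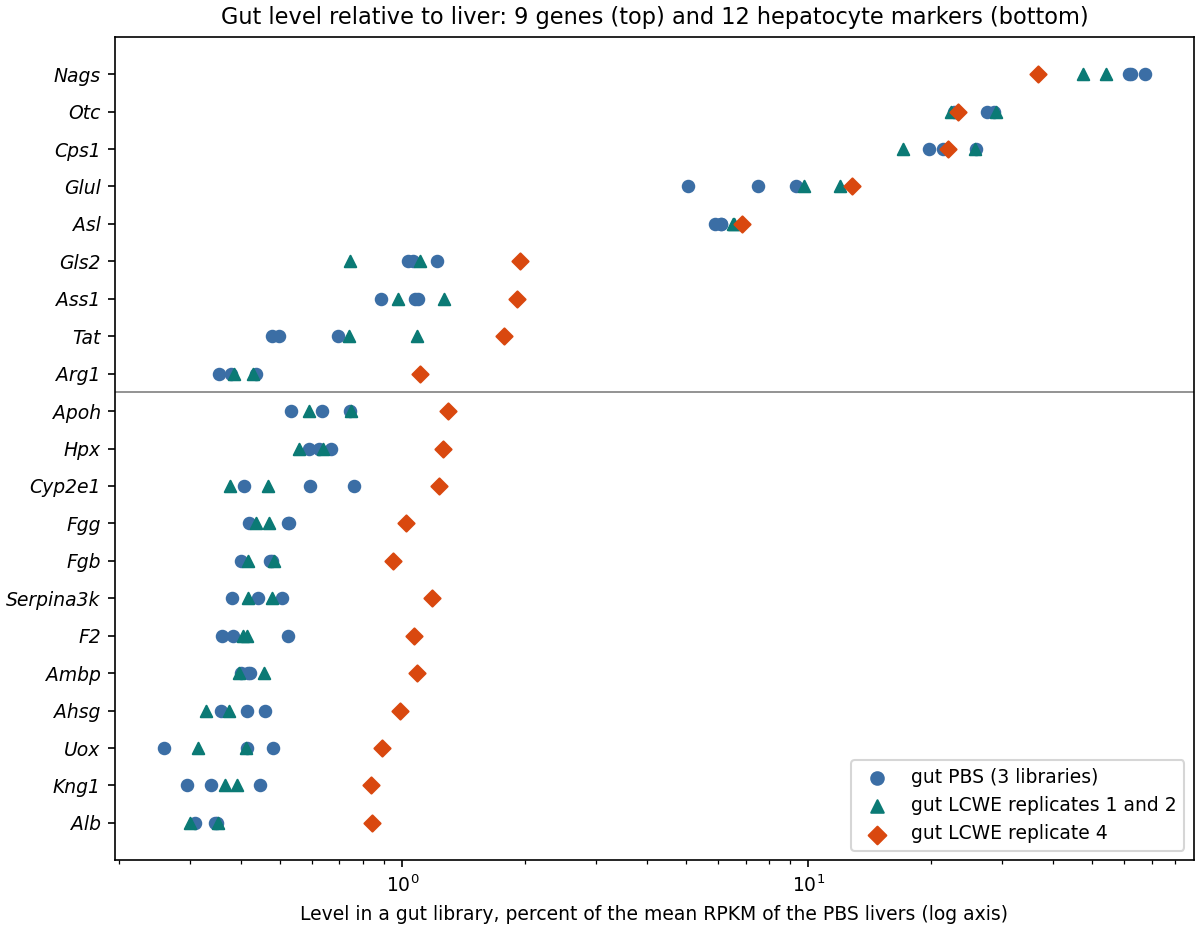
Level of each of the 9 genes (top) and of 12 hepatocyte markers (bottom) in each gut library, as percent of the mean RPKM of the 3 PBS livers (log axis). Circles are PBS gut, triangles LCWE gut replicates 1 and 2 and diamonds LCWE gut replicate 4, in which every marker is higher than in the other gut libraries; Nags, Otc and Cps1 lie far to the right of all markers and Arg1 among them.

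Other genes around the cycle also differed between the tissues. Arg2, the mitochondrial arginase, stood at 0.130 ± 0.0553 RPKM in PBS liver and 33.2 ± 11.1 in PBS gut, the opposite of Arg1. Aldh18a1, which starts the route from glutamate to ornithine and proline, was at 0.313 ± 0.0315 in PBS liver and 20.2 ± 5.16 in PBS gut. Car5a, a mitochondrial carbonic anhydrase that supplies bicarbonate to the Cps1 enzyme, was at 25.8 ± 2.07 in PBS liver and 0.116 ± 0.0721 in PBS gut. Arg2, Aldh18a1 and Car5a each passed the filter on low values through the tissue where they are high, so their gaps are given with no test. Cps1 RNA in gut was thus found with Car5a RNA near 0. Of 114 tested genes in 8 further lists of nitrogen and amino acid metabolism, 82 were called higher in PBS liver and 22 lower. Over all 17253 genes tested, 16.9% were called higher and 60.7% lower. The 114 include genes that passed the filter through a single tissue, Arg2, Aldh18a1 and Car5a among them. Tdo2, which opens the breakdown of tryptophan, had a log2 difference of 7.34, as Tat did.

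With LCWE, none of the 9 genes passed the test in liver (limma, adjusted over 14404 genes, of which 4.04% were called). The log2 fold change of LCWE over PBS was above 0 for 3 genes and below 0 for 6, with a median of -0.07 against 0.06 over all genes tested. In liver 1 of the 9 had an unadjusted p below 0.05, against 18.7% of all genes. Groups did not overlap for 1 of the 9, Cps1, against 27.5% of all genes in either direction and 18.7% with the LCWE libraries higher. The authors' deposited table lists 797 genes for liver, each with a p-value below 0.05 and a fold of at least 2, and holds none of the 9. Neither the enzymes of the cycle nor Glul or Gls2 thus passed in LCWE liver. The count over all genes, 582, was 943 without PBS replicate 2, 113 and 235 without PBS replicates 3 and 4, and 88, 55 and 249 without LCWE replicates 1, 2 and 4, with 0 of the 9 called each time. With 3 libraries a side, the smallest two-sided p that exact permutation can reach is 0.1, so limma alone is given.

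Cps1 came nearest to a difference. Its RPKM in LCWE livers was 441, 420 and 471, each above the 3 PBS livers. The fold was 1.31 (95% interval 1.02 to 1.68), with an adjusted p of 0.234 (limma; unadjusted 0.0390). Otc was at 60.5, 52.6 and 64.2 in LCWE livers, 2 of them below every PBS value, and its interval ran from 0.684 to 1.04-fold (adjusted p 0.377, limma). Nags was at 7.15, 8.01 and 7.91, all under the highest PBS value and overlapping the others (0.689 to 1.11-fold, adjusted p 0.545, limma). The 3 genes of the mitochondrial steps thus lay on both sides of no change.

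The cytosolic enzymes overlapped between the liver groups. Ass1 was at 646, 630 and 802 RPKM after LCWE (0.879 to 1.36-fold, adjusted p 0.657, limma). Asl was at 47.6, 54.1 and 65.7, spanning more than its PBS libraries (0.709 to 1.11-fold, adjusted p 0.564, limma). Arg1, at 1174, 1396 and 1470, had a mean of 1347 ± 154 against 1411 ± 163 (0.759 to 1.20-fold, adjusted p 0.837, limma). The intervals of all 3 include no change and lie between 0.709 and 1.36-fold.

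The glutamine pair was as close. Glul was at 101, 91.1 and 73.6 RPKM after LCWE, with a mean of 88.6 ± 13.9 against 88.2 ± 8.37 after PBS (0.788 to 1.27-fold, adjusted p 0.997, limma). Gls2 was at 30.4, 36.8 and 42.1 (0.751 to 1.18-fold, adjusted p 0.781, limma). The ratio of Glul to Gls2 RPKM was 2.01 to 2.70 in PBS livers and 1.75 to 3.33 in LCWE livers, which overlapped. Tat varied most between livers of a group. It was at 700, 728 and 1484 after LCWE against 756, 731 and 1145 after PBS, with replicate 4 the highest of each group, and its interval of 0.619 to 1.82-fold was the widest of the 9 in liver (adjusted p 0.919, limma).

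Hepatocyte zone markers did not pass the test either, where 4.04% of all genes did. Of the 10 periportal genes tested, which share the zone of the urea cycle, 5 lay above 0 and 5 below with a median of -0.01. Of the 10 perivenous genes tested, which share the zone of Glul, 6 lay above 0 and 4 below with a median of 0.03. The macrophage markers were called higher in 9 of 13, against 3.39% of all genes. Their sum was 202 to 254 RPKM in PBS livers and 447 to 760 in LCWE livers. In whole tissue, fewer cells of a type and less RNA per cell cannot be told apart, and the part of added immune cells in the levels of the 9 genes was not tested.

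Around the 9 genes, the 8 lists of nitrogen and amino acid metabolism held 105 tested genes in liver, of which 2 were called higher and 2 lower (3.81% in all, close to the 4.04% of all genes, of which 3.39% were higher and 0.646% lower). Car5a fell from 25.8 ± 2.07 to 16.0 ± 1.10 RPKM (log2 fold change -0.67 ± 0.11 SE, adjusted p 0.0245, limma). Ido2, an enzyme of tryptophan breakdown, fell from 11.4 ± 0.422 to 8.11 ± 0.139 (-0.46 ± 0.090 SE, adjusted p 0.0432, limma). Asns, which makes asparagine from aspartate and glutamine, rose from 0.901 ± 0.0778 to 4.04 ± 0.968 (1.67 ± 0.18 SE, adjusted p 0.00835, limma). Acmsd, which diverts tryptophan carbon away from NAD synthesis, rose from 5.92 ± 1.12 to 12.2 ± 0.383 (1.0 ± 0.15 SE, adjusted p 0.0197, limma). The groups of these 4 genes did not overlap, as in 27.5% of all genes tested. Since the 4 were picked by their calls on the same libraries, this adds nothing to the calls. Without LCWE replicate 1 or 2 the adjusted p of Asns is 0.0517 and 0.0521. Without PBS replicate 3 or any 1 LCWE replicate that of Acmsd is 0.0658 to 0.110, and without any 1 library but PBS replicate 2 those of Car5a and Ido2 are 0.0513 to 0.133 and 0.113 to 0.205, so each of the 4 calls needs all those libraries.

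By list, medians in liver lay close to 0, while single genes without a call lay farther out. The arginine, ornithine and proline list had 4 genes above 0 and 7 below with a median of -0.02. In it Aldh18a1 was at 0.313 RPKM after PBS and 0.691 after LCWE. That gene passed the filter through the LCWE livers alone, where it is high, so its gap is given with no test. Prodh2 had the smallest p of the others, at 53.6 and 44.2 (adjusted p 0.194, limma). The sulfur list had 5 above and 7 below, with Mat1a, the liver methionine adenosyltransferase, at 260 and 356 (adjusted p 0.139, limma). Histidine, serine, glycine and threonine genes numbered 7 above and 9 below, with Shmt1 at 34.6 and 23.9 (adjusted p 0.0867, limma). The branched-chain and lysine list had 4 above and 16 below, with a median of -0.10 and Bckdha at 31.8 and 25.8 (adjusted p 0.213, limma). Among regulators, Ppargc1a, a coactivator of hepatic fasting genes, was at 1.06 and 2.16 (adjusted p 0.0744, limma). The authors' deposited table lists 5 genes of these lists for liver, all with higher values after LCWE. Its log2 fold changes are 2.11 for Asns (false discovery rate 0.000707), 1.02 for Ppargc1a (0.0126), 1.16 for Aldh18a1 (0.0236), 1.36 for Slc38a1 (0.00906) and 2.21 for Nos2 (0.0345). Of these Asns was also called here and Ppargc1a was not. Aldh18a1 passed the filter on low values through the LCWE livers alone, and Slc38a1 and Nos2 did not pass it.

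In small intestine no tested gene passed (limma, 0 of 17510, with 2202 or 12.6% at an unadjusted p below 0.05; limma voom on recovered reads also gave 0). Of the 9 genes, 8 were tested there, since Gls2 did not reach 0.5 RPKM in 3 libraries. Of the 8, 5 lay above 0 and 3 below, with a median log2 fold change of 0.25 against 0.11 over all genes tested, and 3 had an unadjusted p below 0.05. Groups did not overlap for 4 genes, Tat, Glul and Asl with higher and Nags with lower values after LCWE, against 19.3% of all genes tested, 13.2% with higher and 6.15% with lower values. Without LCWE replicate 1 or 2 the count over all genes became 70 and 4, with 0 of the 8 among them. The authors' deposited table lists 220 genes for small intestine and none of the 9.

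Tat had the largest of these differences. Its RPKM was 9.53, 6.47 and 15.6 in LCWE gut, each above the highest PBS value of 6.08, with replicate 4 highest. The fold was 1.96 (95% interval 1.18 to 3.25, adjusted p 0.317, limma; unadjusted 0.0164). Glul was at 8.58, 10.5 and 11.3, all above the PBS libraries (1.57-fold, 1.09 to 2.25, adjusted p 0.335, limma; unadjusted 0.0222). Nags was the gene with lower values, at 4.25, 4.81 and 3.28 against 5.50 or more after PBS (0.583 to 0.935-fold, adjusted p 0.327, limma; unadjusted 0.0191). Asl was at 4.09, 4.06 and 4.27, a narrow gap above its PBS libraries (0.942 to 1.26-fold, adjusted p 0.533, limma).

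The main gut genes of the cycle overlapped between the groups. Cps1 was at 58.5, 87.9 and 75.6 RPKM in LCWE gut (0.718 to 1.28-fold, adjusted p 0.869, limma). Otc was at 15.7, 20.3 and 16.4 (0.753 to 1.18-fold, adjusted p 0.775, limma). These 2 genes held 65.2 ± 4.30% and 15.6 ± 2.17% of the summed cycle RPKM after LCWE, against 69.0 ± 2.54% and 16.7 ± 0.821% after PBS. Ass1 was at 6.16, 7.98 and 12.1 and Arg1 at 5.44, 6.03 and 15.6, both with replicate 4 far above the others (adjusted p 0.498 and 0.534, limma). Gls2 was at 0.286, 0.423 and 0.748, which rests on 40, 51 and 88 reads.

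**Figure D4:**
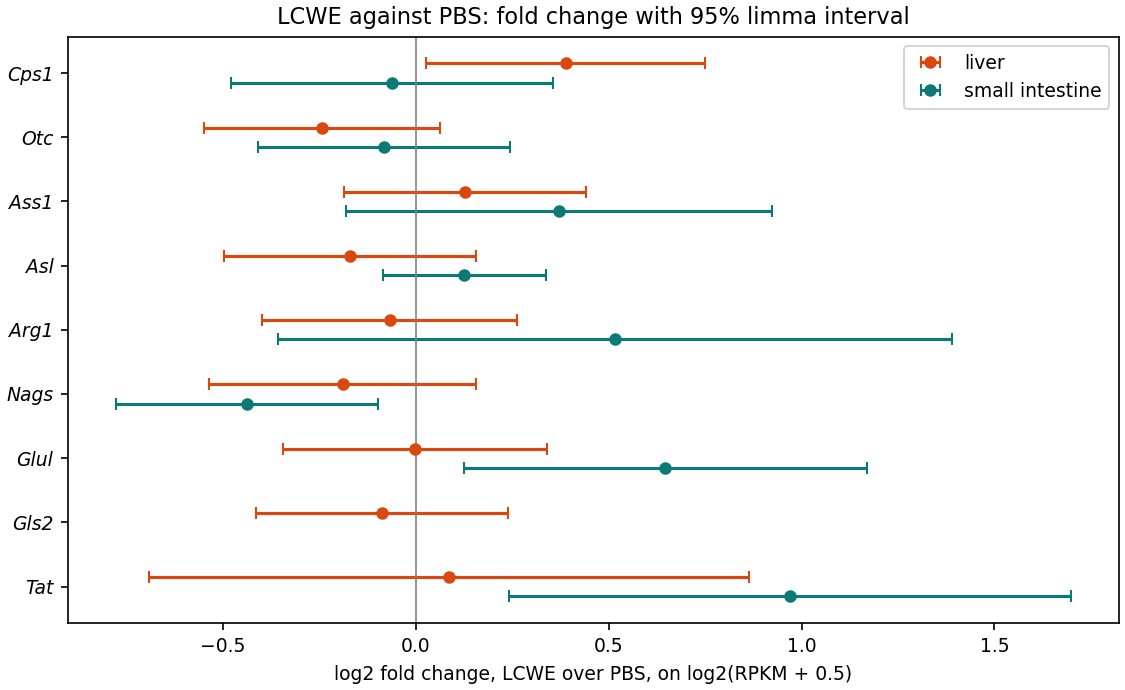
Log2 fold change of LCWE over PBS with its 95% limma interval for each gene in liver and in small intestine, n = 3 per group; Gls2 was not tested in gut. In liver the intervals of all genes but Cps1 include 0 and that of Tat is the widest, and in gut those of Nags, Glul and Tat leave out 0 before adjustment.

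The gut libraries differed in more than treatment label, and these values stand beside every gut result above and below. Proximal gut markers summed to 1694 to 8836 RPKM after PBS and 264 to 754 after LCWE, and distal gut markers to 104 to 3114 and 3711 to 5206. All 10 enterocyte markers tested lay below 0, 7 of 7 distal markers above, and 5 of 6 proximal markers below. Hepatocyte markers summed to 104 to 122 RPKM in PBS gut, 104 and 119 in LCWE replicates 1 and 2, and 278 in LCWE replicate 4, and 12 of 12 lay above 0. In replicate 4 the markers stood at 0.835 to 1.29% of PBS liver, and Arg1 at 1.10%. In LCWE replicates 1 and 2 Arg1, at 0.385 and 0.428%, again lay within the marker range. Tat stood above every marker in all 3 LCWE gut libraries, at 1.09, 0.738 and 1.78%. Without LCWE replicate 4 the log2 fold change of Arg1 went from 0.52 to 0.06 and that of Ass1 from 0.37 to 0.12, while Tat went from 0.97 to 0.66 and Glul from 0.65 to 0.57. The part of segment and epithelial content in these results was not tested.

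**Figure D5:**
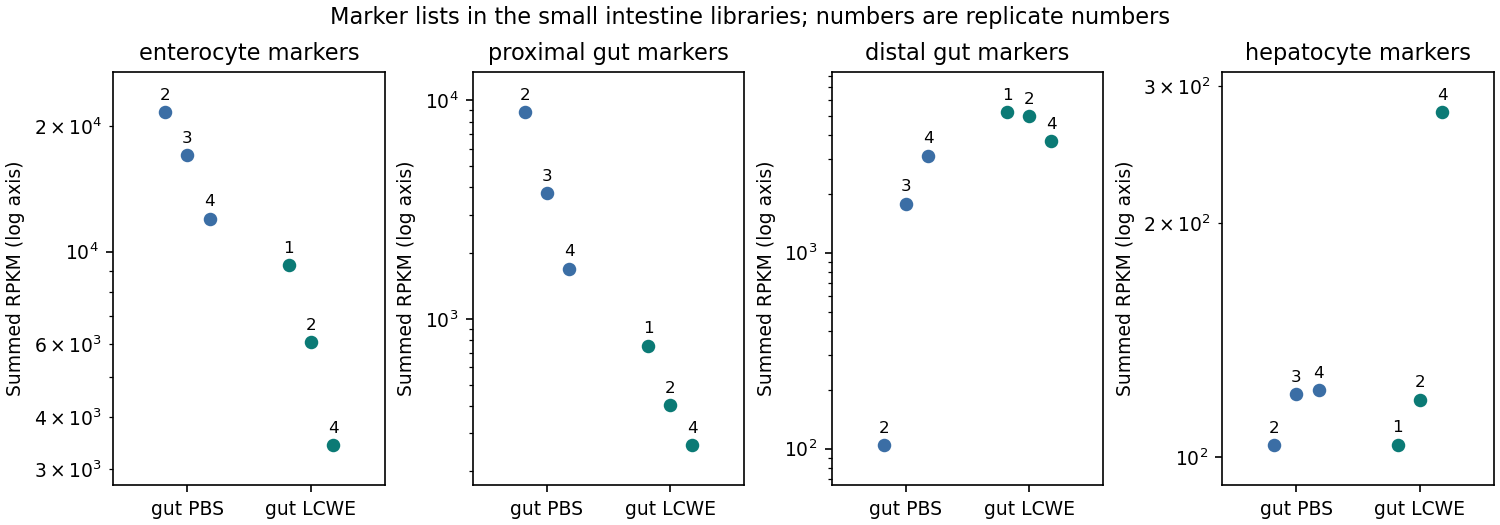
Summed RPKM (log axis) of enterocyte, proximal gut, distal gut and hepatocyte markers in the 6 gut libraries, with replicate numbers. PBS and LCWE libraries do not overlap in the first 3 panels, and LCWE replicate 4 stands apart in the fourth at 278 against 104 to 122.

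Genes around the cycle in gut did not pass either, 0 of 94 tested. Of the 94, 12 had an unadjusted p below 0.05, where 12.6% of all genes tested did. Arg2 was at 33.2 ± 11.1 RPKM after PBS and 15.7 ± 5.65 after LCWE (log2 fold change -1.06, adjusted p 0.295, limma). Its groups did not overlap, as in 6.15% of all genes tested with lower values. Glud1, which frees ammonia from glutamate, was at 54.8 ± 12.4 and 35.2 ± 6.68 (adjusted p 0.332, limma). Aldh4a1, of proline breakdown, was at 5.17 and 1.98 (adjusted p 0.204, limma). Creb3l3, a membrane-bound transcription factor of liver and gut, had the smallest p among the regulators, at 63.2 ± 15.1 and 13.6 ± 6.01 (-2.24, adjusted p 0.186, limma). The mean of Arg2 was at 0.479-fold on the fitted scale after LCWE, and none of these differences passed. Whether Arg2 changed by more than Cps1 or Otc was not tested.

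A test of the liver effect minus the gut effect called none of the 9 genes (limma, 0 of 9, with 1 at an unadjusted p below 0.05 where 12.8% of all genes were; 0.736% of 18619 genes were called). That share rests on 137 genes, a count that ran from 20 without liver PBS replicate 3 to 461 without intestine LCWE replicate 1, with 0 of the 9 called each time. The nearest was Glul, at -0.65 on the log2 scale (adjusted p 0.359, limma; unadjusted 0.0402). Tat was at -0.88 and Cps1 at 0.45 (adjusted p 0.493 and 0.487, limma). Gls2 passed the filter of this fit through liver alone, with 0.286 to 0.748 RPKM in gut. Its value is therefore not read as a test of the tissues. Among the 114 tested genes of the surrounding lists, Asns at 1.31 and Creb3l3 at 2.18 were called higher, as were 0.532% of all genes (adjusted p 0.0400 and 0.0360, limma). For Creb3l3 the log2 fold change was -0.06 in liver and -2.24 in gut, so the value of 2.18 comes from lower gut levels, not from a rise in liver. The part of segment and epithelial content in it was not tested. The call of Asns ends without any 1 library except liver PBS replicate 2, liver LCWE replicate 4 and intestine LCWE replicate 1 (adjusted p 0.0628 to 0.117), and also with a pseudocount of 1 (0.0590), no filter (0.0695), quantile scaling (0.0574) or the replicate block (0.126). That of Creb3l3 ends without any 1 except intestine PBS replicate 4 and intestine LCWE replicate 1 (0.0505 to 0.104), and also with no filter (0.0704) or the replicate block (0.0969).

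Each gene was finally set beside the genes whose profile over the 12 libraries was most like it, by the mean absolute difference of centred log2 values among 12818 candidates. This is dominated by the gap between liver and gut. Arg1 was nearest to Gc, the vitamin D binding protein of plasma (0.0429), and Ass1 to F12, coagulation factor XII (0.0844). Otc was nearest to Sod1 (0.0867) and Acat1 (0.0957), and Nags to Gpx4 (0.0724), genes expressed in most tissues. Cps1 was nearest to Rnf144b (0.147) and Shmt2 (0.159), and Asl to Cyp2c38 (0.0793). Gls2 was nearest to Clec4g (0.0975) and Glul to C1ra (0.167). Tat had no close match, with Akr1c20 (0.303) and Cyp2f2 (0.310) as its nearest.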

How the data were processed

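RNA was prepared with TRIzol and DNase I, per the labels' protocols. Expression came from the authors' deposited table of RPKM values. The submitters' processing notes name edgeR 3.12.1, Subread 1.5.1, featureCounts, Trimmomatic 0.36 and mm10 with no roles, and an aligner was not given in the sources used here. Of 16 library columns 12 matched a sample, and the other 4 were not used. The product of RPKM and length was a whole read number (tolerance 0.001) for 100% of the non-zero values. The authors' deposited table of comparisons gives a p-value, a false discovery rate and a log2 fold change per gene and was used only where named.

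Groups came from the labels. Genes with RPKM of at least 0.5 in at least 3 of the libraries fitted entered limma 3.58.1 (R 4.3.3) as log2(RPKM + 0.5), with a trended eBayes, two-sided tests and Benjamini-Hochberg adjustment over all genes tested. The tissues had separate fits. The interaction of tissue and treatment was fitted over the 12 libraries and the control tissues over the 6 PBS libraries. The fit was tested on simulated data. Alternatives were pseudocounts of 0.1 and 1, no filter or a filter of 1, median-ratio and quantile scaling, limma voom on recovered reads, a replicate block, 1 fit over the 4 groups and leaving out each library. The 9 genes and all lists were chosen with earlier results of these data known. Beside the 9, the text names from each pathway list up to 6 called genes by smallest p (or the 1 of smallest p), and the 2 genes most like each of the 9 in profile. Arg2 in small intestine and Prodh2 in liver are named beyond that rule, as are genes of these lists in the authors' deposited table. Some results are not reported here.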

Additional observations from a re-analysis of the deposited data

How the results depend on the processing

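The number of the 9 genes called was 0 under each of 15 alternatives in liver, 15 in small intestine and 20 for the tissue difference. For the control tissues it was 8 or 9 under 14 alternatives. The count of 9 includes Gls2, which passed the filter through liver alone and was not tested without 1 PBS liver. Only the other 8 genes are read from it, and these were called each time. The lowest adjusted p of a member over the alternatives was 0.180 in liver, 0.113 in small intestine and 0.130 for the tissue difference. Over all genes, the liver count of 582 ran from 24 with the replicate block to 987 in 1 fit over the 4 groups, 55 without LCWE replicate 2 and 943 without PBS replicate 2. The small intestine count of 0 became 243 in 1 fit over the 4 groups, 70 without LCWE replicate 1 and 4 without LCWE replicate 2. Median-ratio and quantile scaling raised the median control tissue difference over all genes by 0.66 and 0.72, and Nags then stood at 1.35 and 1.25, Otc at 2.69 and 2.24 and Cps1 at 2.96 and 2.25, still the 3 smallest of the 9 in both. Same-numbered libraries did not deviate together (correlations of -0.102 to 0.115 over 10 pairs), and the numbers were not taken as pairs. These correlations cannot show whether a liver and a gut library came from the same animal, and the main fits treat them as independent.

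Signs turned for fold changes near 0. In liver Tat was -0.021 under median-ratio scaling and Glul 0.025 under quantile scaling, and with the replicate block, which rests on numbers 2 and 4, Cps1 was 0.073 and Otc 0.022 in small intestine. Leaving out single libraries gave -0.27 to 0.29 for Tat, -0.10 to 0.13 for Glul, -0.13 to 0.028 for Arg1 and -0.20 to 0.036 for Gls2 in liver. It gave -0.19 to 0.10 for Cps1 in small intestine, and -0.45 to 0.0039 for Ass1 and -0.30 to 0.029 for Gls2 in the tissue difference. There Gls2 passed the filter through liver alone. With the replicate block the adjusted p of Asns, Acmsd, Car5a and Ido2 in liver was 0.160, 0.264, 0.472 and 0.657, and without a filter that of Ido2 was 0.0508. The alternatives for genes other than the 9 were chosen after seeing the data. The cause was not tested.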
